A study of Caenorhabditis elegans with 6 samples.

Results

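The major sperm protein family was described in RNA sequencing libraries of whole Caenorhabditis elegans at late L4, the last larval stage. Members were the genes listed under a name made of msp or ssp and a number, 47 of the 46245 genes in the files. Of these, 35 were msp genes (major sperm protein) and 12 were ssp genes (sperm-specific family, class P). The 2 strains had 3 libraries each and were grown at 20 °C. The first, DCL33, had the alleles ad465 of eat-2 and tm3232 of acs-20. The second, DCL289, carried ptr-8(mkc18) besides the same eat-2 and acs-20 alleles, and is marked by ptr-8 in the plots, where DCL33 is marked by its 2 gene names alone. Both strains therefore lack normal eat-2, a pharyngeal acetylcholine receptor subunit whose mutants feed slowly, and normal acs-20, an acyl-CoA synthetase gene. The comparison asked what differs when ptr-8, which encodes a patched-related membrane protein, is mutated in that background. The labels give neither the sex of the animals nor whether replicates came from separate cultures, so p-values measure only how these libraries vary, and that variation may be technical.

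Major sperm protein is the main cytoskeletal protein of nematode sperm. Its filaments grow and shrink to move the crawling, amoeboid sperm cell, where most other crawling cells use actin. The protein is also released by sperm and acts as a signal that starts oocyte maturation and contraction of the gonadal sheath. In the C. elegans hermaphrodite, sperm are made during L4 and the germline then turns to oocytes, and the msp genes are transcribed in spermatocytes. The ssp genes encode shorter proteins of the same domain family. Many msp genes are near copies of each other in sequence, so reads can be exchanged between copies. How reads with several matches were treated is not given in the sources used here, and levels of single msp genes are uncertain for that reason. Sequences of the members were not used here.

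The msp genes lay on 2 chromosomes, 15 on chromosome II between 4785861 and 5810342 and 20 on chromosome IV between 5055593 and 10144175, in the coordinates of the files. The ssp genes lay on chromosomes I (4 genes), IV (6) and V (2). When members less than 50000 bp apart were joined, chromosome II held 5 groups and chromosome IV held 8. The largest group, of 7 msp genes, ran from msp-19 to msp-65 (chromosome IV, 5260554 to 5316944). By the Ensembl 115 annotation of WBcel235, 43 members were protein-coding and 4 (msp-37, msp-42, msp-52 and msp-71) were pseudogenes. Of the coding msp genes, 28 had a single coding exon that specifies 127 residues, 2 (msp-58 and msp-74) had short models for 77 residues, and msp-32 encoded 119 residues. The ssp proteins had 107 to 112 residues. The name table gives the name ssp-9 to the gene listed in the files as ssp-11 as well, and the files' names are used here.

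Levels are FPKM, the authors' unit of fragments normalised to transcript length and to the mapped fragments of the library, divided by 1 scaling factor per library (0.869 to 1.33). Sperm transcripts were abundant in all 6 libraries. The median member stood at the 94.5th to 97.5th percentile of the 15205 tested genes of its library, and 30 to 34 of the 45 tested members were above the 90th percentile. The other 2 members, msp-32 and the pseudogene msp-37, are listed at 0 in every library and were not tested. Mean levels over the 6 libraries ran from 5.85 for ssp-37 to 1206 for msp-36. The 28 full-length msp genes had a median level of 648, and msp-63 was the lowest of them at 26.3. The ssp genes ranged up to 603, for ssp-9, with a median of 114.

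The 6 most abundant members were all full-length msp genes. msp-36 (WBGene00003432, chromosome IV, 10095400 to 10095851, plus strand) was at 1726, 793 and 733 scaled FPKM in replicates 1 to 3 of DCL33 and at 1834, 959 and 1191 in those of DCL289. msp-59 (WBGene00003452, chromosome IV, 5312690 to 5313146) was at 1717, 780 and 741 and at 1680, 833 and 1284. In both genes replicate 1 was the highest library of each strain, and the strains' ranges overlapped. msp-152 (WBGene00003470, chromosome II, 4932993 to 4933449) was at 1368, 689 and 675 and at 1685, 900 and 1509. msp-81 (WBGene00003467, chromosome IV) was at 1613, 770 and 698 and at 1642, 808 and 1233. The same order of libraries held within each strain. msp-40 (WBGene00003435, chromosome II) was at 1558, 732 and 723 and at 1545, 775 and 1230, and msp-19 (WBGene00003426, chromosome IV) was at 1544, 741 and 694 and at 1497, 740 and 1176. In these last 2 genes the highest library was replicate 1 of DCL33, by a small margin. Neighbouring genes in this order differed by far less than the spread of each over its libraries, so the order among the 6 is not resolved.

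**Figure D1:**
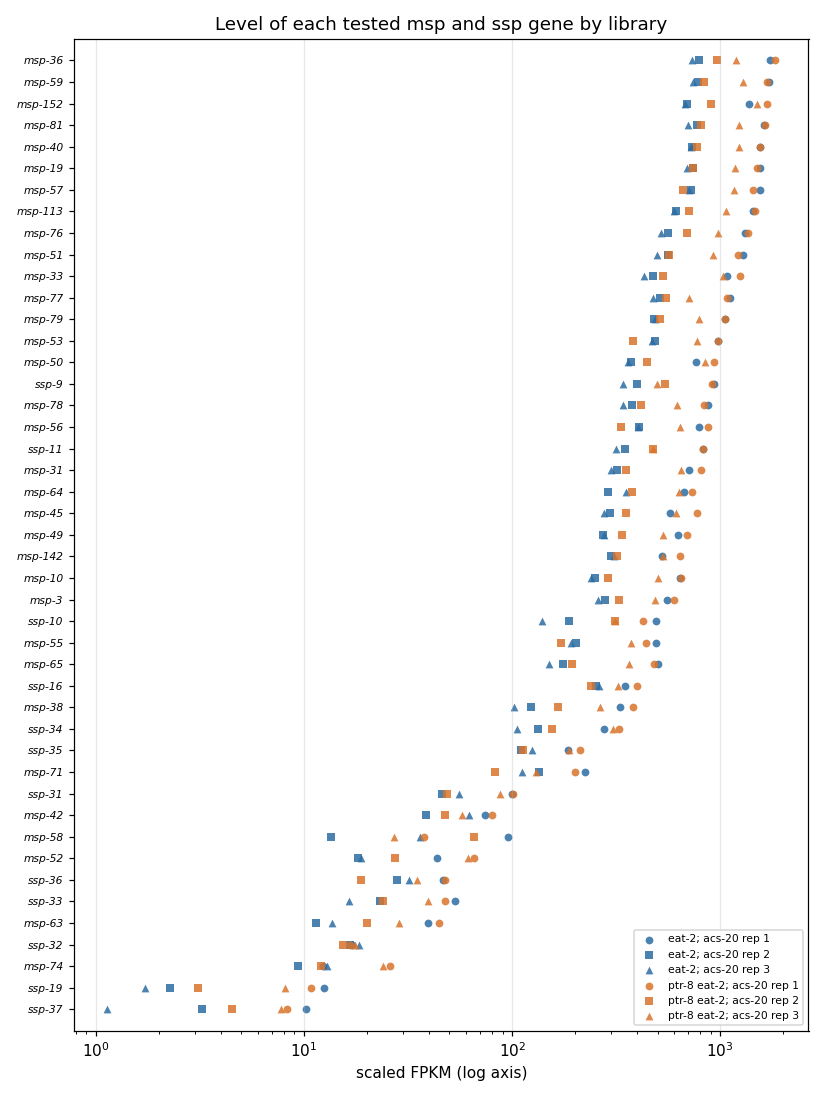
Scaled FPKM (log axis) of the 45 tested msp and ssp genes, 1 row per gene ordered by mean level, with 1 point per library, coloured by strain and shaped by replicate number. Replicate 1 of both strains lies at the right of nearly every row, replicates 2 and 3 of DCL33 and replicate 2 of DCL289 lie at the left of most rows, and the strains overlap in all 45 rows.

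The 3 most abundant ssp genes were also highest in replicate 1 of each strain. ssp-9 (WBGene00006038, chromosome IV, 4994325 to 4994739, minus strand) was at 931, 397 and 340 in DCL33 and at 912, 545 and 494 in DCL289. ssp-11 (WBGene00006040, chromosome IV, 4999432 to 4999853) was at 828, 349 and 315 and at 830, 476 and 475. ssp-10 (WBGene00006039, chromosome IV, 9850646 to 9851061) was at 493, 188 and 139 and at 427, 311 and 311. In these 3 genes replicates 2 and 3 of DCL289 were close to each other, whereas 42 of the 45 members were higher in replicate 3 than in replicate 2. ssp-32 stood apart with a nearly flat level, 15.3 to 18.4 over the 6 libraries, a range of 1.21-fold where the median member had a range of 2.57-fold and the median of all tested genes was 1.61-fold.

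Spread between libraries of the same strain was large and shared by the members. Replicate 1 of DCL33 was above both of its fellow replicates in 43 of 45 members, as against 36.2% of all tested genes, and for the 28 full-length msp genes it was 1.76 to 3.44 times replicate 2 (median 2.20). Replicate 1 of DCL289 was likewise the highest of its strain in 43 of 45 members (33.8% of all tested genes), with 1.84 to 2.62 times replicate 2 in the full-length msp genes (median 2.07). The summed scaled FPKM of the family was 31159, 14349 and 13662 in DCL33 and 32337, 15901 and 24713 in DCL289. As a share of the summed scaled FPKM of protein-coding genes, these are 1.59%, 0.662% and 0.679% and 1.72%, 0.953% and 1.33%. Replicate 1 was the highest library of each strain, replicates 2 and 3 of DCL33 were near each other, and replicate 3 of DCL289 lay between its fellow replicates. In whole animals, fewer spermatocytes and less transcript per spermatocyte cannot be told apart.

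**Figure D2:**
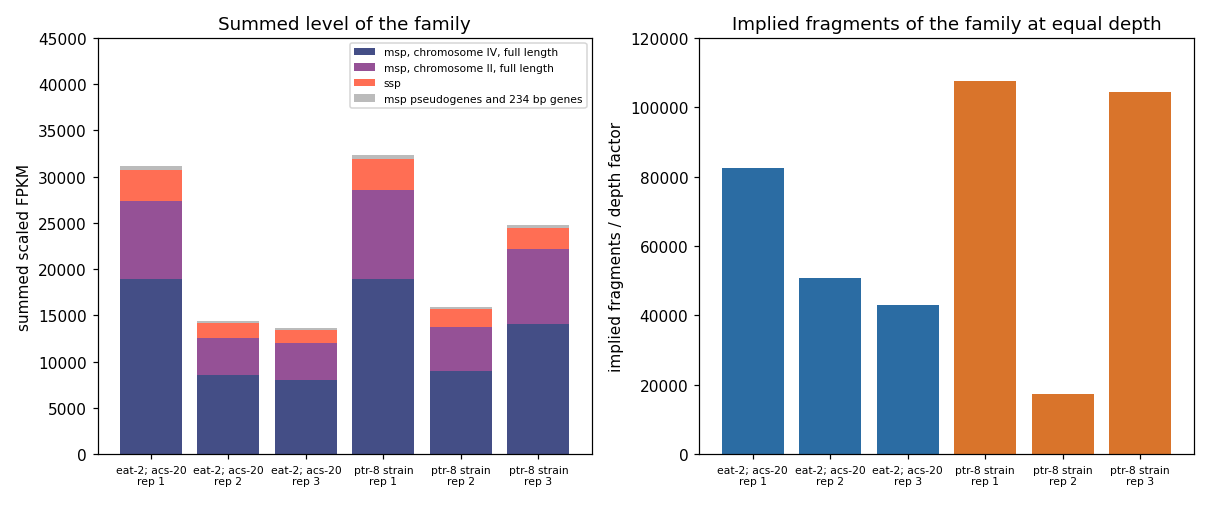
Left, summed scaled FPKM of the family per library, split into full-length msp genes of chromosome IV, those of chromosome II, ssp genes and the remaining msp genes. Right, fragments implied by the intervals, summed over the family and divided by a depth factor per library. Replicate 2 of DCL289 is at 15901 on the left, above 2 of the DCL33 libraries, and at 17231 on the right, the lowest of the 6.

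No member passed the test of the strain difference. Of 45 tested members, none had an adjusted p below 0.05 in limma with Benjamini-Hochberg adjustment over all 15205 genes, where 348 genes, 2.29%, did (53 higher in DCL289, 0.349%, and 295 lower, 1.94%). One member, msp-74, had an unadjusted p below 0.05, as did 20.7% of all genes. The strains' ranges overlapped in all 45, whereas 13.6% of all genes were higher in DCL289 without overlap and 14.1% were lower. The summed level was 19723 ± 9909 in DCL33 and 24317 ± 8225 in DCL289 (SD, n = 3 each), a ratio of 1.23. The difference of these means, 4594, was smaller than the SD within either strain.

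In direction, 42 of the 45 members had a higher mean log2 level in DCL289, as did 50.9% of all tested genes. Fold changes are on the log2(scaled FPKM + 1) scale, DCL289 minus DCL33, and ranged from -0.21 for msp-71 to 0.94 for msp-52, with standard errors of 0.10 to 0.70 (median 0.41). Their median was 0.35, beside 0.01 over all tested genes. The members moved together from library to library, so the 42 are not separate observations. The median was 0.77, 0.16 and 0.15 without DCL33 replicates 1, 2 and 3, and 0.11, 0.59 and 0.35 without those of DCL289. In none of these 6 fits did a member pass, and the lowest adjusted p was 0.0524, without DCL33 replicate 1, where 21 members had an unadjusted p below 0.05.

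Of the 6 most abundant genes, msp-152 had the largest fold change, 0.61 (SE 0.36, limma adjusted p = 0.378), with means of 911 ± 396 and 1365 ± 412. For msp-36 the means were 1084 ± 557 and 1328 ± 453 (0.35, SE 0.40, limma adjusted p = 0.647). The means of msp-19 were 993 ± 478 and 1138 ± 380 (0.24, SE 0.39, limma adjusted p = 0.767). Among ssp genes, ssp-10 was at 274 ± 192 and 350 ± 67.0 (0.56, SE 0.46, limma adjusted p = 0.532). The fold changes of msp-59, msp-81, msp-40, ssp-9 and ssp-11 lay between 0.28 and 0.35, with limma adjusted p-values of 0.675 to 0.723.

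**Figure D3:**
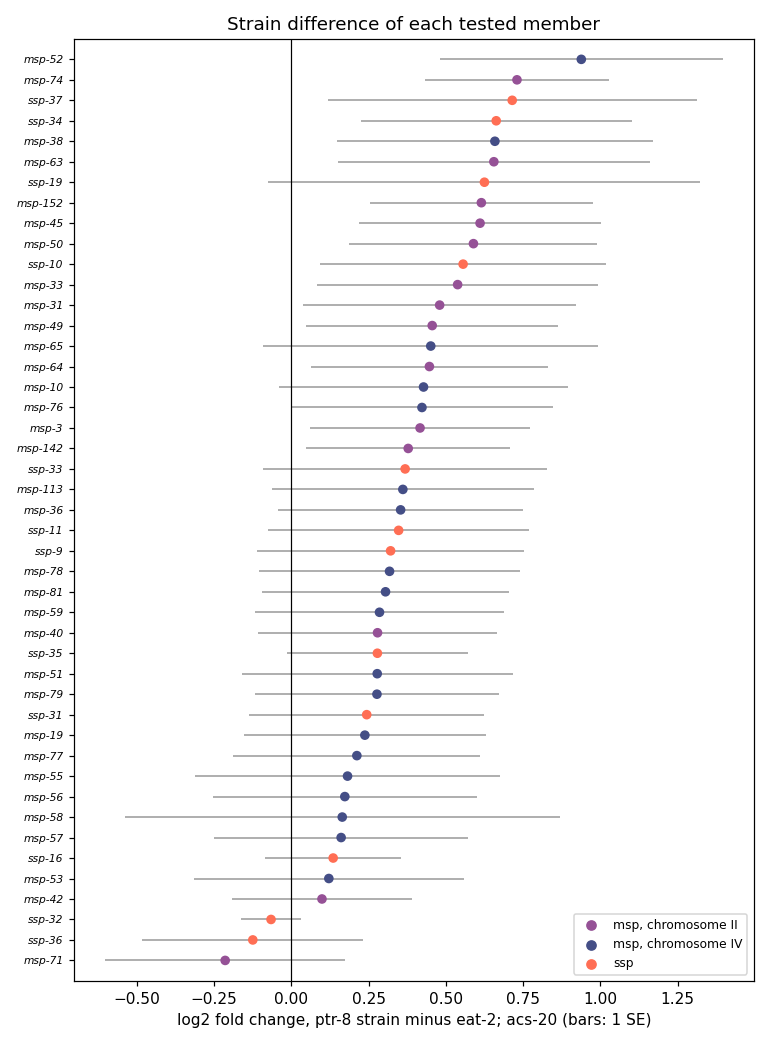
Log2 fold change (DCL289 minus DCL33) of each tested member with bars of 1 standard error, ordered by size and coloured by family and chromosome. The values run from -0.21 to 0.94, and the chromosome II msp genes lie mostly in the upper part of the plot.

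Low members and pseudogenes gave the extremes. msp-52, annotated as a pseudogene (WBGene00003445, chromosome IV, 5265592 to 5265921), was at 43.6, 18.2 and 18.7 in DCL33 and at 65.6, 27.5 and 61.6 in DCL289 (log2 fold change 0.94, SE 0.46, limma adjusted p = 0.304). msp-74 (WBGene00003462, chromosome II, 5115102 to 5115335) was at 12.3, 9.38 and 12.9 and at 25.9, 12.1 and 23.9 (0.73, SE 0.30, limma adjusted p = 0.238). Its FPKM rested on very few fragments, an implied 1, 2 and 1 in DCL33 and 4, 1 and 11 in DCL289. msp-58, whose model has the same length, rested on 2.15 to 12.02 implied fragments and ranged from 13.5 to 95.7 scaled FPKM. The pseudogene msp-71 (WBGene00003460, chromosome II, 5012874 to 5013275) was at 224, 135 and 111 and at 201, 82.3 and 130, the lowest fold change of the family (-0.21, SE 0.39, limma adjusted p = 0.790). Its sign turned without DCL33 replicate 1 (0.08) or DCL289 replicate 2 (0.11). ssp-36 and ssp-32 were the other members with a lower mean log2 level in DCL289 (-0.12 and -0.07).

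A fragment of a short gene was worth a different FPKM in different libraries. Each FPKM is deposited with an interval, and reading its half-width as 2 standard errors gives an implied number of fragments. Over the 28 full-length msp genes, an implied fragment at equal depth was worth a median of 0.363, 0.274 and 0.306 scaled FPKM in DCL33, and 0.290, 0.874 and 0.231 in DCL289. Replicate 2 of DCL289 was thus 2.41 times replicate 1 of DCL33 in this respect. For 192 other coding genes with loci of the same length, 384 to 513 bp, that ratio was 2.58, and for 7712 genes with loci of at least 2000 bp it was 0.899. The implied fragments of the whole family at equal depth were 82377, 50800 and 43050 in DCL33 and 107700, 17231 and 104285 in DCL289. On this scale replicate 2 of DCL289 was the lowest library, and on the FPKM scale it was above replicates 2 and 3 of DCL33. With implied fragments in place of FPKM in limma the median of the members was 0.05, 27 of 45 were above 0, and none passed. Whether the intervals hold counting error alone is not known. Without that library, the FPKM fit gave a median of 0.59 and a lowest adjusted p of 0.0661, again with no member passing.

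Within the family, the msp genes of chromosome II took a larger part in DCL289 than in DCL33. This pattern was noticed in the data and is given with no test. The summed scaled FPKM of full-length msp genes on chromosome II was 0.447, 0.472 and 0.494 of that on chromosome IV in the DCL33 libraries and 0.512, 0.526 and 0.575 in the DCL289 libraries. The 2 strains did not overlap in this ratio, although the libraries differed more than 2-fold in the sums themselves, and the means were 0.471 ± 0.024 and 0.538 ± 0.033 (SD, n = 3 each). From implied fragments the ratio was 0.410, 0.438 and 0.457, and 0.474, 0.479 and 0.545. The ratio does not depend on the scaling factors. Median fold changes were 0.48 for the 11 tested full-length genes of chromosome II and 0.29 for the 17 of chromosome IV, beside 0.01 and 0.02 for all other tested genes of these chromosomes.

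**Figure D4:**
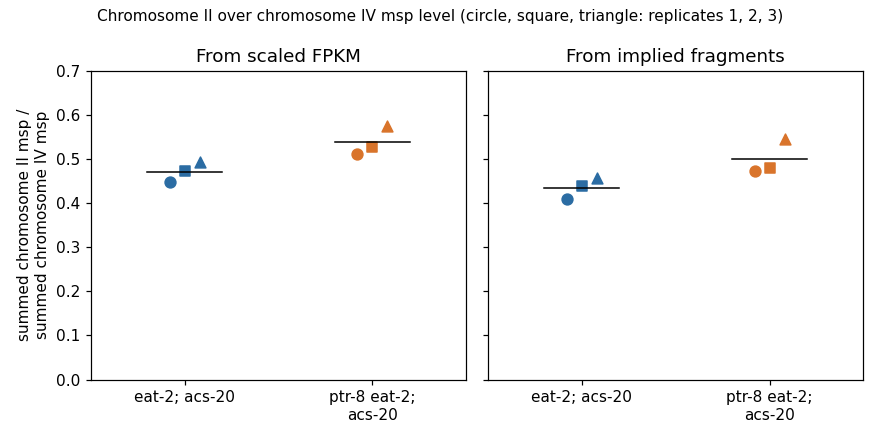
Summed level of full-length msp genes on chromosome II divided by that on chromosome IV, 1 point per library with the strain mean as a line, from scaled FPKM (left) and from implied fragments (right). All DCL289 libraries lie above all DCL33 libraries in both panels, from 0.512 to 0.575 against 0.447 to 0.494 on the left.

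Single genes carried this ratio unequally. After subtraction of the mean log2 level of the 28 full-length msp genes in each library, 4 chromosome II genes (msp-45, msp-49, msp-50 and msp-152) were higher in DCL289 without overlap and none was lower. Of the 17 full-length chromosome IV genes, 6 (msp-19, msp-51, msp-53, msp-57, msp-59 and msp-79) were lower without overlap and none was higher. Because the mean is taken over these same 28 genes, a rise of one chromosome against it entails a fall of the other, so the opposite directions are not separate observations. Outside the 28, ssp-34 and msp-52 of chromosome IV were higher without overlap and msp-71 of chromosome II and ssp-36 of chromosome IV were lower, which makes 6 higher and 8 lower of the 45 members. Over all tested genes 0.691% were higher and 3.48% lower by this measure. Those genes do not share the swing of the family between libraries, so the shares are no fair standard for the members. The fold changes of single genes overlapped between the chromosomes: the 11 of chromosome II, from 0.28 to 0.66, all lay within the range of the 17 of chromosome IV, from 0.12 to 0.66. By position, the summed level of DCL289 over that of DCL33 was 1.44 for msp-33, msp-32, msp-31 and msp-152 (chromosome II, 4892269 to 4933449) and 1.45 for msp-74, msp-45, msp-49 and msp-50 (5115102 to 5200222), and 1.20 for msp-3, msp-42 and msp-40 (4785861 to 4825845). It was 1.10 for msp-55, msp-57 and msp-53 (chromosome IV, 5055593 to 5065153) and 1.18 for the group of 7 from msp-19 to msp-65. Against the pattern, it was 1.26 for msp-36, msp-38 and msp-37, 1.27 for msp-76 and 1.53 for ssp-34, all on chromosome IV, and 0.878 for msp-71 on chromosome II. Of the chromosome II genes, msp-31 and msp-33 lie within the loci of aagr-2 and gst-9, and msp-45 within that of srb-13. aagr-2 was at 88.7, 95.4 and 117 and at 74.2, 71.1 and 71.0, gst-9 was at most at 16.4, and srb-13 was at most at 0.0632. The part of these overlaps, and of reads exchanged between copies, in the ratio was not tested.

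Other sperm genes moved with the family. Of 36 listed genes of sperm outside the family, 35 were found and tested, and none passed. Their median fold change was 0.32, and 30 were above 0 (50.9% of all tested genes). An unadjusted p below 0.05 was found for 2 of them (20.7% of all tested genes). The highest were msd-4, msd-2 and msd-1, which encode proteins with a major sperm protein domain. msd-4 was at 833, 375 and 403 in DCL33 and at 762, 497 and 616 in DCL289, msd-2 was at 737, 254 and 251 and at 749, 381 and 560, and msd-1 was at 609, 208 and 208 and at 563, 293 and 440. All 3 were highest in replicate 1 of their strain, as the family was. Without DCL33 replicate 1, 4 of the 35 genes passed, in a fit in which 4.49% of all tested genes did.

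As a list, the regulators of sperm fate did not share the swing. Their mean log2 levels were 3.65, 3.72 and 3.75 in DCL33 and 3.88, 3.83 and 3.82 in DCL289. Of the 12 tested regulators none passed (median 0.12), and 2 had an unadjusted p below 0.05 (20.7% of all tested genes). In DCL289, 4 of the 12 were higher without overlap (13.6% of all tested genes). spe-44, a transcription factor of spermatocytes, was at 21.0, 23.8 and 23.1 in DCL33 and at 24.99, 23.2 and 20.5 in DCL289. The 2 most abundant, fem-2 and fem-1, which promote male fate, were at 31.3 ± 1.73 and 34.5 ± 0.740, and at 28.1 ± 5.38 and 29.7 ± 5.18 (n = 3). elt-1, a GATA factor that binds msp promoters, was at 5.79 ± 0.621 and 6.35 ± 0.210. Single regulators were less even than the list. In DCL33 fog-3 was at 10.2, 15.3 and 15.6, lowest in replicate 1. fog-2 was highest in that library of DCL33, at 17.7, 14.9 and 16.6. Among 11 genes for the response to the sperm signal in sheath and oocytes, 3 were higher and 1 was lower in DCL289 without overlap. Over all tested genes the shares were 13.6% and 14.1%. None of the 11 passed (median 0.03), and 2 had an unadjusted p below 0.05 (20.7% of all tested genes). Without DCL33 replicate 1, 1 of the 11 passed, in a fit in which 4.49% of all tested genes did. The most abundant were vpr-1, which encodes a somatic protein with a major sperm protein domain (159 ± 5.13 and 169 ± 1.58), and the subunits of protein kinase A, kin-1 (104 ± 5.20 and 101 ± 11.2) and kin-2 (84.5 ± 2.04 and 74.96 ± 3.72).

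By mean log2 level, oocyte genes followed the family's order of libraries in DCL33 (5.30, 5.14 and 4.43) but not in DCL289 (5.55, 5.71 and 5.95). Of 16 oocyte genes, all had a higher mean log2 level in DCL289, 15 without overlap (13.6% of all tested genes), and none passed. Their median was 0.77, and 14 had an unadjusted p below 0.05 in limma (20.7% of all tested genes). perm-4 and perm-2, eggshell genes, were at 269, 176 and 118 and at 321, 271 and 310, and at 237, 147 and 76.9 and at 282, 289 and 293. cpg-2, an eggshell chondroitin proteoglycan gene, was at 139, 119 and 64.9 and at 179, 193 and 256. Replicate 2 of DCL289, the lowest of its strain for the family, was between the other replicates in cpg-2, and replicate 1, the highest for the family, was lowest there. In perm-4, by contrast, the libraries of both strains kept the family's order. Of 11 germline genes all were above 0, 6 without overlap, and none passed (3 at unadjusted p below 0.05, median 0.19). The most abundant were glh-1 (239 ± 13.8 and 261 ± 14.997), gld-1 (189 ± 35.6 and 258 ± 24.9) and pgl-1 (121 ± 14.01 and 159 ± 9.83).

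Stage markers moved with the family in part. The 4 adult-stage collagens had mean log2 levels of 8.22, 7.27 and 6.29 in DCL33 and 8.68, 8.23 and 8.62 in DCL289. None passed (median 1.65), and 2 had an unadjusted p below 0.05, as did 20.7% of all tested genes. One collagen passed without DCL33 replicate 1, where 4.49% of all tested genes did. On FPKM as deposited 1 passed, where 1.60% of all tested genes did. By this mean the libraries of each strain stood in the order of the family, but col-63 was lowest in replicate 1 of both strains (876 and 860) and col-19 was highest in replicate 3 of DCL289 (851). Replicates 2 and 3 of DCL33 were nearly equal in the family, at mean log2 levels of 7.38 and 7.35, and differed in the collagens and in oocyte genes (5.14 and 4.43). The highest collagens were col-63 (1087 ± 206 and 922 ± 54.6), col-19 (238 ± 175 and 726 ± 130) and col-7 (85.7 ± 82.1 and 194 ± 56.0). With the collagen level of each library as a covariate, the family's median was -0.55, and no member passed. The collagen level was itself higher in DCL289, so stage and strain cannot be told apart in this fit. The part of stage in the strain difference was not tested.

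**Figure D5:**
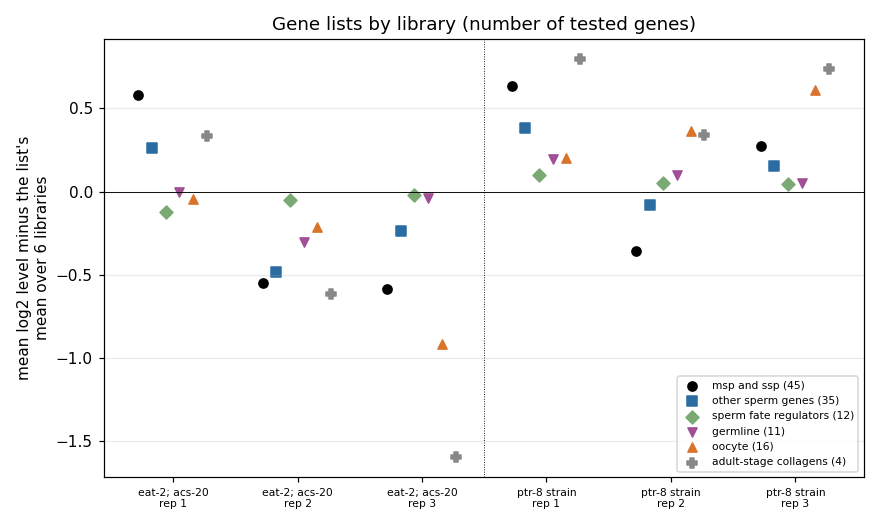
Mean log2 level of the family and of 5 gene lists in each library, as the difference from the list's mean over the 6 libraries. The family and the other sperm genes are high in replicate 1 of both strains, the regulators of sperm fate stay near 0, and the oocyte genes are lowest in replicate 3 of DCL33.

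Of 10 genes of male neurons, male gonad and male fate, 8 were under the filter on low levels. The 2 tested were mab-3 and try-5, with means of 5.85 ± 1.28 and 5.10 ± 1.20 and of 2.09 ± 0.392 and 1.41 ± 0.683, and neither passed (0 at unadjusted p below 0.05). The third highest, cwp-4, was at 0.296 ± 0.130 and 0.672 ± 0.466, and cwp-1 and cwp-3 are listed at 0 in every library. The male-determining gene her-1, counted with the regulators of sperm fate, was at 12.02 in replicate 2 of DCL33 and at 0 to 0.419 in the other libraries, and was not tested. The summed scaled FPKM of the 10 was 7.64, 9.83 and 9.18 in DCL33 and 8.55, 8.59 and 7.31 in DCL289. Most of this sum was mab-3 in every library, and the part of males in the swing of the family was not tested.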

How the data were processed

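Total RNA of whole animals was sequenced in 6 libraries, 3 per strain. FastQC 0.11.5, TopHat2, HTSeq and DESeq2 appear, with no role stated, in the submitters' processing notes, and no genome build does. The authors deposited 1 table of FPKM values per library with interval bounds and a status, per the file headers. Sequencing depth and strand are not given by these tables or the labels. Coordinates were raised by 1, and all 47 members lay on the same chromosome in Ensembl 115 (WBcel235).

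Deposited FPKM were divided by the trimmed mean of ratios (trimmed by 30% on the ratio and by 5% on the level, at either end). Tested genes reached a scaled FPKM of 1 in at least 3 libraries, a locus of at least 200 bp and no FAIL mark (15205 genes). limma 3.58.1 (R 4.3.3, intensity trend) was fitted to log2(scaled FPKM + 1) with strain as the only term. Tables were made with Python 3.11.15. On simulated data for this comparison (15056 genes) 53% of changes of 2-fold were recovered and 87% of those of 4-fold, with 3.45% false calls. The simulated noise was independent between genes, and the changes were put in genes drawn from the whole table. The members moved together and had a median standard error of 0.41, beside 0.16 over all tested genes. The shares recovered therefore do not hold for the family. The median interval half-width of members was 4.39% to 9.39% of the FPKM, which leaves out variation from library to library. Implied depth was 0.533 to 1.56 times that of the first library. Members with full values were the 6 msp and 3 ssp genes of highest mean, the 3 of lowest p and those of highest and lowest fold change, and of each further list the 3 most abundant genes and any that passed. msp-32, msp-37, msp-58, msp-63, ssp-32, ssp-36, ssp-37, ssp-34, her-1, elt-1, fog-2, fog-3 and the genes of the chromosome comparison were named after their values were seen. The members, the lists and the alternatives were chosen with earlier results of these data known.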

Additional observations from a re-analysis of the deposited data

How the results depend on the processing

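No member passed under any alternative run: a replicate block, the collagen covariate, a pseudocount of 0.1, testing without a filter, scaling by upper quartile or by median of ratios, each library left out, and, added after the data were seen, FPKM as deposited and implied fragments. The number at unadjusted p below 0.05 ran from 0 to 21. The family's median fold change kept its sign (0.05 to 0.77) except with the collagen covariate (-0.55). With that covariate msp-36, msp-59, msp-152, msp-81, msp-40 and msp-19 were at -0.52, -0.60, -0.15, -0.58, -0.55 and -0.62, and ssp-9, ssp-11 and ssp-10 at -0.63, -0.58 and -0.60. The cause was not tested. With implied fragments msp-59, msp-81, msp-40 and msp-19 were at -0.034, -0.012, -0.029 and -0.085. The log2 ratio of summed levels was 0.30, and 0.04 (without DCL289 replicate 1) to 0.80 (without DCL33 replicate 1) with 1 library left out. msp-71 ran from -0.53 to 0.11 in those fits.

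Over all genes, 53 were higher and 295 lower. Counts were 24 and 136 with the replicate block, 2 and 14 with the covariate, 66 and 178 on FPKM as deposited, where the median of all genes shifted to 0.10, and 18 and 64 with implied fragments. They ran from 14 to 276 and from 44 to 396 with 1 library left out. Whether replicate numbers pair the libraries was not settled by the values. Deviations from strain means correlated at 0.25, 0.05 and 0.03 for numbers 1 to 3. The first was the highest of all pairs, while replicates 2 and 3 of DCL33 correlated best with another number (0.15 and 0.05). The block changed no member's call. With it 5 members had an unadjusted p below 0.05 in limma, against 1 in the main fit.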
